A study of Mus musculus with 48 samples.

Results

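The combination of 2 appetite-suppressing drugs, AC3174 and AC170222, was set against the single drugs in total RNA from the dorsal vagal complex (DVC) of mice. The comparison has 9 of the 48 libraries of the series as members. They were chosen by their labels as the 3 combination, 3 AC3174 and 3 AC170222 libraries of DVC input, and each single drug has equal weight in the mean that the combination is compared with. The 3 saline libraries of DVC input enter the fit and give the level without drug. The series also holds input from the mediobasal hypothalamus (MBH) and, from both regions, RNA bound to ribosomes that carry phosphorylated ribosomal protein S6 (IP), an activity mark. Input is total RNA from 25 µL of the same clarified homogenate before that pull-down.

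All groups were male C57/Bl6 mice aged 9 weeks on standard chow, with no genetic change stated, and all were fasted for 6 h before the drug or saline was injected intraperitoneally at 10 µL per g. The combination group received both drugs. AC3174 was given at 1 µg/kg. AC170222 was given at 2.5 µg/kg per the protocol, where exenatide (1 µg/kg) and AC710222 (10 µg/kg as another dose beside 2.5 µg/kg) also appear. The treatment field of the labels spells the second drug AC710222 and the titles spell it AC170222, so its dose here is not certain. The labels used here state neither the doses inside the combination nor how long after injection tissue was taken, nor how many mice made a library. The library codes begin with C for saline and AC3174 and with D for AC170222 and the combination, so that letter and the difference from AC3174 cannot be told apart. Nothing states that the 3 libraries of a group came from separate animals, so p-values measure the spread between these libraries, which may be technical.

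AC3174 is known as an agonist of the GLP-1 receptor and AC170222 as one of the CCK receptor Cckar. The comparison asks whether both signals together leave DVC RNA in a state that neither leaves alone. GLP-1 is an incretin peptide cut from the Gcg product in gut cells and in a small group of hindbrain neurons, and its receptor Glp1r raises cAMP. CCK is released from the upper gut after a meal and acts through Cckar on vagal afferents, with Gq and calcium downstream. Both signals meet in the DVC, which is made of the nucleus of the solitary tract, the area postrema and the dorsal motor nucleus of the vagus, and both reduce meals there.

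Total counts per library were 29492622 to 87948003 in the combination, 31733617 to 95079227 with AC3174, 36375183 to 94488084 with AC170222 and 43753523 to 80618210 in saline, and a count was found for 16569 to 18200 genes. Levels below are CPM, read counts scaled to the TMM-adjusted library size, and log2 differences are fitted values ± SE. The libraries carried the marks of hindbrain. Hoxb5, a hindbrain positional gene, was at 191, 153 and 222 CPM in the combination, 141, 152 and 135 CPM with AC3174, 227, 196 and 173 CPM with AC170222 and 159, 189 and 89.9 CPM in saline. The hypothalamic regulators Nkx2-1 and Six6 did not exceed 0.0663 CPM in any of the 12 libraries. Peptide genes of hypothalamic neurons were low but not absent. Agrp was above 5 CPM in combination 2 and was counted in all 3 saline libraries. Pmch reached 2.64 CPM in combination 1, and Hcrt and Oxt reached 2.27 and 1.04 CPM in AC3174 1. Dbh, Th and Chat, markers of catecholamine and vagal motor neurons, were counted in all 12 libraries.

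One combination library stood apart by markers of the neighbouring cerebellum. Combination 2 held Car8, a Purkinje cell gene, at 254 CPM against 29.5 and 23.0 CPM in the other combination libraries, 60.0, 24.7 and 28.7 CPM with AC3174, 17.6, 25.8 and 15.2 CPM with AC170222 and 27.5, 30.4 and 12.8 CPM in saline. The granule cell genes Cbln3 (48.3 CPM) and Gabra6 (14.1 CPM) and the Purkinje gene Pcp2 (23.2 CPM) were highest in the same library. Gabra6 had a count of 0 in the other libraries except AC3174 1 (7.55 CPM). Summed over the 11 cerebellar genes, the level ran from 190 to 880 CPM in the combination, 153 to 371 CPM with AC3174, 178 to 223 CPM with AC170222 and 166 to 238 CPM in saline.

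Choroid plexus RNA was high in single libraries of 3 groups. Ttr, the thyroid hormone carrier made by choroid plexus, was at 322, 15.7 and 1090 CPM in the combination, 1050, 35.1 and 160 CPM with AC3174, 13.6, 31.4 and 123 CPM with AC170222 and 37.7, 37.4 and 1530 CPM in saline. Its summed list ran from 159 to 2280 CPM in the combination, 308 to 1760 CPM with AC3174, 218 to 413 CPM with AC170222 and 221 to 3140 CPM in saline. Mitochondrially encoded RNA took 0.53% to 3.99% of the counts, with the top value in AC3174 1. The part of these differences in the results below was not tested beyond leaving each library out.

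**Figure D1:**
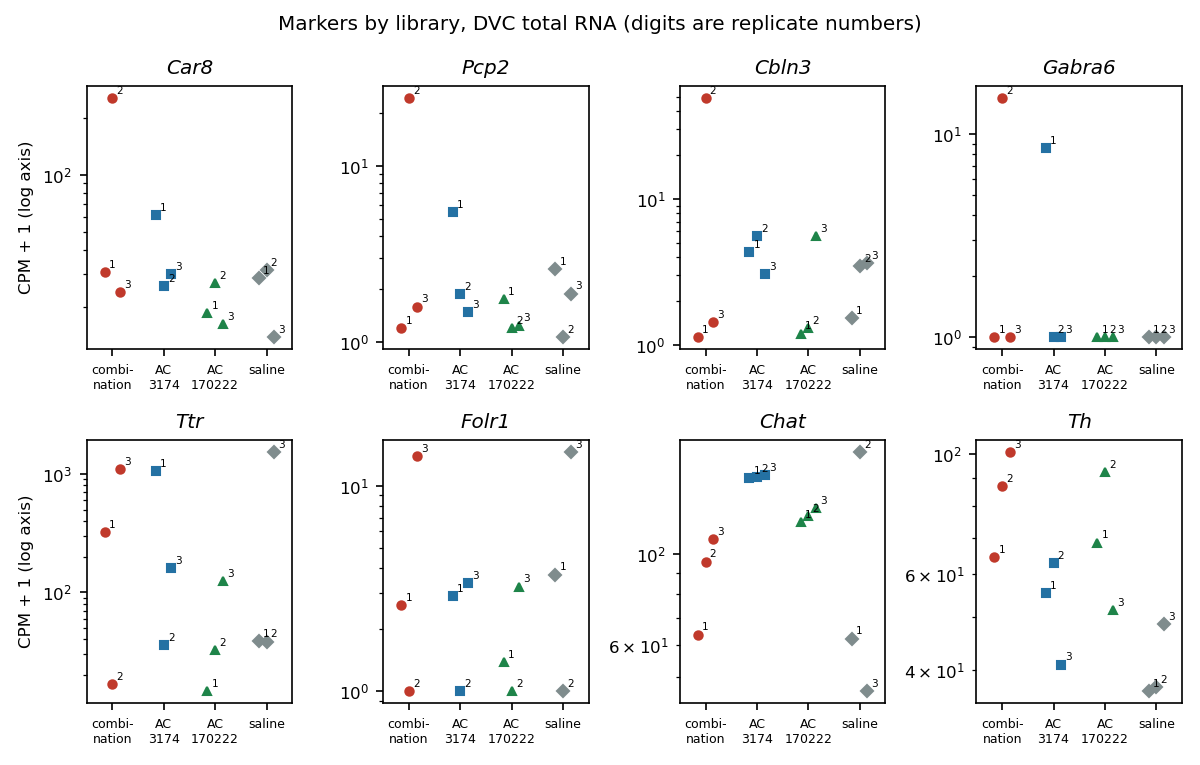
Level of cerebellar genes (Car8, Pcp2, Cbln3, Gabra6), choroid plexus genes (Ttr, Folr1) and DVC neuron genes (Chat, Th) in the 12 DVC input libraries, as CPM + 1 on log axes. Each point is 1 library and the digit is its replicate number; combination 2 holds the 4 cerebellar genes at their highest level, and Ttr is highest in saline 3, combination 3 and AC3174 1.

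No gene passed the test between the combination and the mean of the single drugs. edgeR's quasi-likelihood test called 0 of 17477 genes (0.0%) at an adjusted p under 0.05, the lowest adjusted p was 0.222 (Alox12b), and 844 genes (4.83%) had an unadjusted p under 0.05. Of these, 371 were higher with the combination (2.12% of all genes tested) and 473 lower (2.71%). limma-voom also called 0 genes, and 1130 had an unadjusted p under 0.05. DESeq2 called 263 genes (1.5%), 107 higher and 156 lower. Of those 263, 212 had a count of 0 in at least 1 of the 9 libraries, against 4405 of all 17477 genes, and 194 had a whole treatment group at 0. At a mean level of at least 5 CPM DESeq2 called 51 genes, of which 42 had 3 combination libraries beyond all 6 single-drug libraries.

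**Figure D2:**
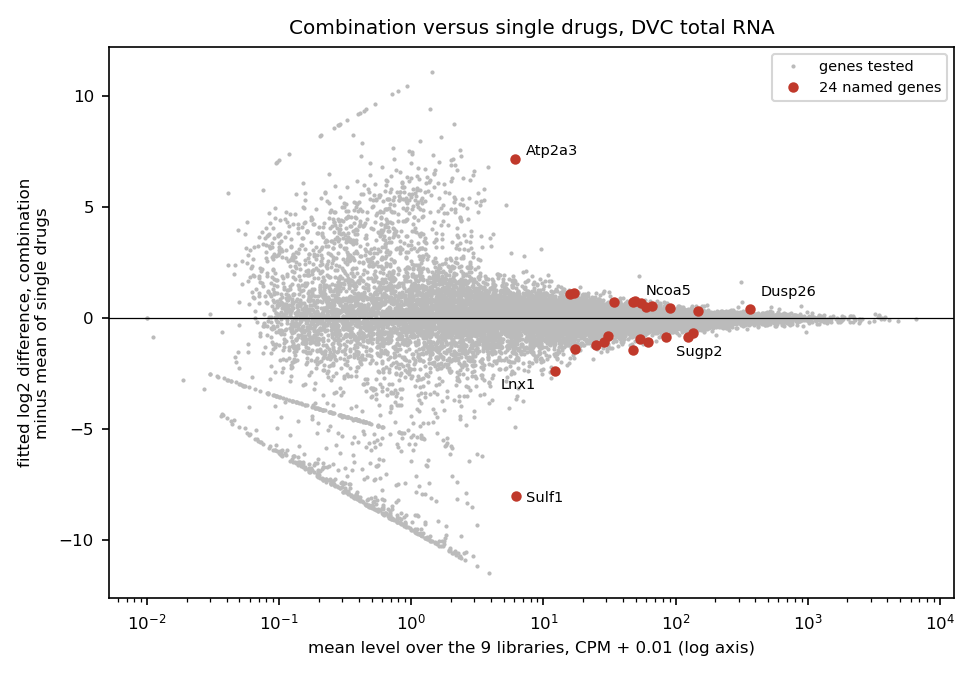
Fitted log2 difference of the combination minus the mean of the single drugs (vertical axis) against the mean level over the 9 libraries in CPM + 0.01 (log axis) for the 17477 genes tested. Red points are the 24 named genes, and the spread of the differences widens at low levels, where whole groups at 0 form the straight lines.

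Without overlap, all 3 combination libraries lay above all 6 single-drug libraries in 170 genes (0.973% of those tested) and below them in 209 (1.2%). The 12 genes of smallest p in each direction with a mean of at least 5 CPM are described next, and none of these 24 passed edgeR's test (adjusted p of 0.881 to 0.964). In 20 of the 24 the combination libraries also lay beyond all 3 saline libraries, 8 of 12 in the higher direction and 12 of 12 in the lower. DESeq2 called 7 of the 12 higher genes and 12 of the 12 lower genes. Since these genes were picked for their separation, the counts describe them and support nothing.

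Among the genes at a higher level, Dusp26 was the most abundant. Dusp26, a dual-specificity phosphatase of neurons, was at 463, 412 and 441 CPM in the combination, 343, 339 and 345 CPM with AC3174, 341, 309 and 290 CPM with AC170222 and 314, 350 and 350 CPM in saline. The combination lay above all 9 other libraries (log2 0.42 ± 0.09, edgeR adjusted p = 0.881, DESeq2 adjusted p = 2.6e-06). Thra, the thyroid hormone receptor alpha, had a narrow spread too, at 171, 168 and 176 CPM in the combination, 142, 131 and 125 CPM with AC3174, 140, 137 and 142 CPM with AC170222 and 128, 143 and 156 CPM in saline (log2 0.33 ± 0.10, edgeR adjusted p = 0.964).

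2 regulators of transcription differed more in relative size. Ncoa5, a nuclear receptor coregulator, was at 69.0, 75.9 and 58.1 CPM in the combination, 32.7, 30.2 and 37.5 CPM with AC3174, 47.3, 42.3 and 53.1 CPM with AC170222 and 40.8, 50.8 and 50.0 CPM in saline (log2 0.76 ± 0.16, edgeR adjusted p = 0.881). Mlxip, which encodes the glucose-responsive factor MondoA, was at 25.1, 26.1 and 22.0 CPM in the combination, 11.5, 15.7 and 7.22 CPM with AC3174, 10.9, 8.32 and 15.9 CPM with AC170222 and 18.9, 30.8 and 23.1 CPM in saline (log2 1.07 ± 0.32). For Mlxip the combination overlapped saline and the single drugs were the low groups.

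The other higher genes serve RNA processing, membrane traffic and metabolism. Pgd, an enzyme of the pentose phosphate pathway, was at 66.1, 74.5 and 79.4 CPM in the combination, 42.8, 52.0 and 26.9 CPM with AC3174 and 58.9, 50.9 and 44.5 CPM with AC170222. Bet1 (log2 0.71 ± 0.19), a SNARE between endoplasmic reticulum and Golgi, Cstf1 (0.71 ± 0.20), a subunit of the polyadenylation machinery, and Ebna1bp2 (0.47 ± 0.14), a ribosome assembly factor, had differences of moderate size. Timm21 (1.13 ± 0.31) belongs to the protein import machinery of mitochondria, Gnptg (0.49 ± 0.15) to the enzyme that tags lysosomal hydrolases, and Phyhip (0.55 ± 0.17) is a brain-enriched partner of phytanoyl-CoA hydroxylase. Atp2a3, a calcium pump of the endoplasmic reticulum, was at 11.9, 29.5 and 12.4 CPM in the combination, 0, 0 and 0.194 CPM with AC3174, 0, 0.769 and 0 CPM with AC170222 and 0, 0 and 3.27 CPM in saline. Its highest library was combination 2, the one with cerebellar RNA, and DESeq2 gave it no adjusted p.

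Among the genes at a lower level, Sulf1 was nearly absent with the combination. Sulf1, a secreted enzyme that trims sulfate from heparan sulfate chains, was at 0, 0 and 0.108 CPM in the combination, 15.5, 7.30 and 5.38 CPM with AC3174, 6.27, 15.5 and 5.21 CPM with AC170222 and 7.12, 14.9 and 2.04 CPM in saline. It was present in all 9 libraries without the combination (fitted log2 -8.03 ± 1.55, edgeR adjusted p = 0.881, DESeq2 adjusted p = 5.52e-11). Lnx1, a ubiquitin ligase, was at 4.90, 1.12 and 3.66 CPM in the combination, 18.4, 17.6 and 14.5 CPM with AC3174, 22.7, 13.4 and 14.2 CPM with AC170222 and 16.1, 15.9 and 13.7 CPM in saline (log2 -2.37 ± 0.49, edgeR adjusted p = 0.881).

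2 adhesion molecules of neurons were low in all 3 combination libraries. L1cam, which guides axons, was at 22.9, 21.1 and 22.4 CPM in the combination, 83.3, 67.9 and 29.9 CPM with AC3174, 61.8, 72.6 and 47.9 CPM with AC170222 and 73.3, 62.1 and 56.8 CPM in saline (log2 -1.45 ± 0.30, edgeR adjusted p = 0.881, DESeq2 adjusted p = 0.000186). The nearest other library was AC3174 3. Cntn1, contactin-1, which acts at myelinated axons and synapses, was at 67.7, 93.2 and 76.2 CPM in the combination, 94.6, 168 and 155 CPM with AC3174, 150, 176 and 130 CPM with AC170222 and 172, 118 and 132 CPM in saline (log2 -0.88 ± 0.21, edgeR adjusted p = 0.964). Its gap to the nearest single-drug library was small.

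Genes of lysosomes, endosomes and cilia were also in the lower set. Clcn7, the chloride-proton exchanger of lysosomes, was at 12.9, 13.7 and 12.4 CPM in the combination, 38.8, 44.0 and 29.3 CPM with AC3174, 28.5, 20.9 and 25.1 CPM with AC170222 and 35.5, 48.9 and 26.5 CPM in saline (log2 -1.23 ± 0.26, edgeR adjusted p = 0.881). Washc5 (log2 -1.10 ± 0.25) is a subunit of the WASH complex, which builds actin on endosomes, and Bbs1 (-0.97 ± 0.21) is a subunit of the BBSome, which moves receptors in and out of primary cilia. In Bbs1 the combination was at 33.8, 25.8 and 38.2 CPM, the AC3174 libraries at 53.3, 67.3 and 64.8 CPM and the AC170222 libraries at 65.6, 78.4 and 52.8 CPM, and saline, which overlapped the single drugs, at 60.4, 45.4 and 40.5 CPM.

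Sugp2, a splicing-related protein, was at 45.9, 54.3 and 64.8 CPM in the combination, 93.0, 109 and 102 CPM with AC3174, 88.4, 112 and 91.2 CPM with AC170222 and 89.2, 123 and 89.0 CPM in saline (log2 -0.85 ± 0.17, edgeR adjusted p = 0.881, DESeq2 adjusted p = 0.000663). The 3 other groups had nearly the same level. The remaining lower genes were Afg1l (log2 -1.08 ± 0.23), a mitochondrial ATPase, Eml1 (-0.67 ± 0.15), a microtubule-binding protein, Tpst1 (-0.83 ± 0.21), which sulfates tyrosines of secreted proteins, and the unnamed transcript R74862 (-1.39 ± 0.33). In GRCm38 coordinates, Dusp26 lies on chromosome 8 from 31089471 to 31097047, Ncoa5 on chromosome 2 from 165000357 to 165034867, Sulf1 on chromosome 1 from 12692277 to 12861192 and L1cam on chromosome X from 73853778 to 73896105. Sugp2 lies on chromosome 8 from 70234226 to 70279915 and Clcn7 on chromosome 17 from 25133391 to 25162104. Counts are over each whole gene, so no exon or UTR is singled out.

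**Figure D3:**
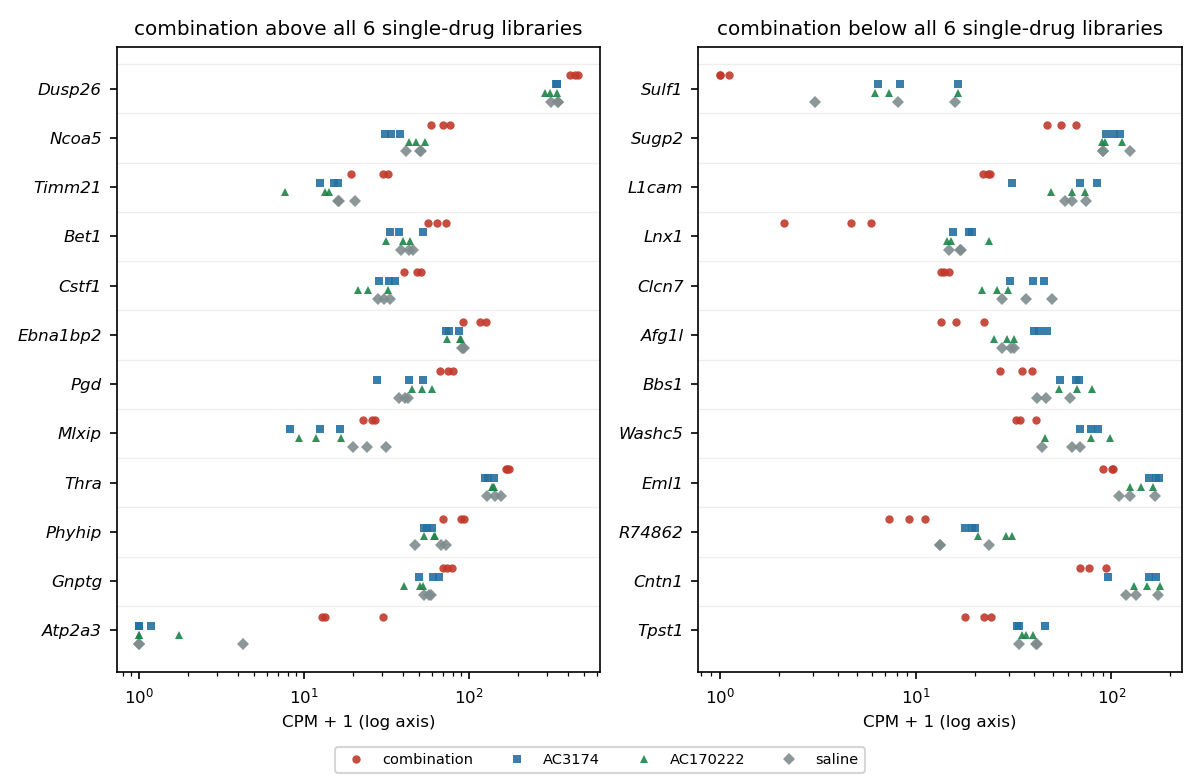
Level of the 24 named genes in each DVC input library as CPM + 1 on a log axis, with the 12 genes whose combination libraries lay above all 6 single-drug libraries on the left and the 12 below them on the right. Each point is 1 library, and in Timm21, Ebna1bp2, Mlxip and Phyhip saline libraries reach the combination while in the 12 genes on the right they do not.

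Some genes were at 0 in a whole group. Alox12b, a lipoxygenase best known from skin, had a count of 0 in the 3 combination libraries and was at 4.83, 6.81 and 2.85 CPM with AC3174, 6.02, 6.12 and 8.30 CPM with AC170222 and 1.72, 7.83 and 3.49 CPM in saline. Against a floor of 3 counts over the group (0.0196 CPM), its level was at least 297-fold lower in the combination than the mean of the single drugs, yet edgeR's adjusted p was 0.222. Fbxl7, a ubiquitin ligase subunit, was also at 0 in the combination, at least 156-fold lower than the mean of the single drugs. It was at 1.10 to 5.49 CPM in the 6 single-drug libraries and at 0, 0.524 and 0.59 CPM in saline. For Fbxl7 saline thus lay below all single-drug libraries too. Alox12b and Fbxl7 were the only 2 genes at 0 in the combination with at least 1 CPM in every single-drug library. No gene showed the opposite. By the same measure 2 genes, Atf3 and Mmp11, were at 0 with AC3174, and Gpr152 and Itgb3 were counted with AC3174 alone among the drug groups. AC170222 had no such gene. The genes in this paragraph other than Atf3 were chosen after their values were seen.

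No peptide or receptor gene of the GLP-1 and CCK system passed the test. Gcg, the GLP-1 precursor, was at 10.9, 1.94 and 17.8 CPM in the combination, 6.94, 8.02 and 3.37 CPM with AC3174, 10.7, 14.8 and 4.92 CPM with AC170222 and 1.70, 14.0 and 1.89 CPM in saline (log2 0.38 ± 0.82, edgeR adjusted p = 1). Glp1r, the GLP-1 receptor, was at 4.00, 0 and 0.781 CPM in the combination, 5.28, 2.33 and 0 CPM with AC3174, 0.952, 2.73 and 1.14 CPM with AC170222 and 0 CPM in all 3 saline libraries (-0.34 ± 1.84). Fewer cells of a type and less RNA per cell cannot be told apart in bulk tissue, here or for any other gene.

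On the CCK side, the peptide was counted in every library. Cck was at 25.9, 8.56 and 18.4 CPM in the combination, 19.4, 9.97 and 11.7 CPM with AC3174, 16.7, 20.3 and 12.6 CPM with AC170222 and 18, 13.5 and 10.4 CPM in saline (log2 0.22 ± 0.40). Cckar, the receptor of vagal afferents, was at 5.64, 1.43 and 5.55 CPM in the combination, 9.36, 7.15 and 10.5 CPM with AC3174, 2.60, 0 and 3.21 CPM with AC170222 and 0, 9.61 and 9.71 CPM in saline (0.01 ± 1.54). Combination and AC170222 overlapped below the AC3174 libraries. Cckbr, the brain-type CCK receptor, was at 10.9, 8.33 and 6.44 CPM in the combination, 4.75, 5.90 and 4.31 CPM with AC3174 and 11.6, 7.72 and 3.18 CPM with AC170222 (0.48 ± 0.53). Of the 9 genes listed for the GLP-1 and CCK system, 7 were tested, 0 were called, 4 had a positive difference and the median log2 was 0.01, beside 9144 of 17477 and 0.02 over all genes tested.

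Fos, the standard marker of recent neuronal activity, overlapped between the combination and each single drug. It was at 44.3, 37.3 and 27.8 CPM in the combination, 25.4, 35.3 and 41.9 CPM with AC3174, 48.1, 34.4 and 40.8 CPM with AC170222 and 19.6, 23.6 and 14.2 CPM in saline. The 9 drug libraries all lay above the 3 saline libraries and overlapped each other (log2 -0.04 ± 0.25 for the combination against the single drugs). The mean was 36.5 ± 8.28 CPM in the combination, 34.2 CPM with AC3174, 41.1 CPM with AC170222 and 19.1 ± 4.71 CPM in saline (SD, n = 3 each). The fitted difference of the combination from the sum of both single-drug effects was -1.01 ± 0.41 on the log2 scale, with an edgeR adjusted p of 1, so the shortfall from additivity did not pass the test.

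Other activity genes had their own patterns among the single drugs. Junb was at 19.0, 22.5 and 22.9 CPM in the combination, 12.9, 12 and 15.7 CPM with AC3174, 19.6, 21.1 and 23.5 CPM with AC170222 and 19.1, 27.8 and 26.7 CPM in saline. Only the AC3174 libraries stood low. Atf3, a stress- and injury-induced factor, was at 3.28, 3.81 and 4.04 CPM in the combination, 0 CPM in the 3 AC3174 libraries, 4.00, 11.1 and 3.31 CPM with AC170222 and 0, 2.28 and 0.16 CPM in saline (fitted log2 5.08 ± 1.47, edgeR adjusted p = 0.964). That value rested on AC3174 being at 0. The fitted log2 was 10.89 ± 2.51 against AC3174 and -0.72 ± 1.61 against AC170222, which the combination overlapped. Egr1 was at 71.4, 87.9 and 105 CPM in the combination, 26.8, 68.2 and 81.2 CPM with AC3174, 107, 65.9 and 67.0 CPM with AC170222 and 60.6, 34.8 and 61.2 CPM in saline (0.36 ± 0.33). Nr4a1 (0.42 ± 0.55) and Btg2 (-1.22 ± 0.62) overlapped between groups. Of 43 immediate early genes 42 were tested, 0 were called, 20 had a positive difference, none had the combination beyond the single drugs and the median log2 was -0.04.

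**Figure D4:**
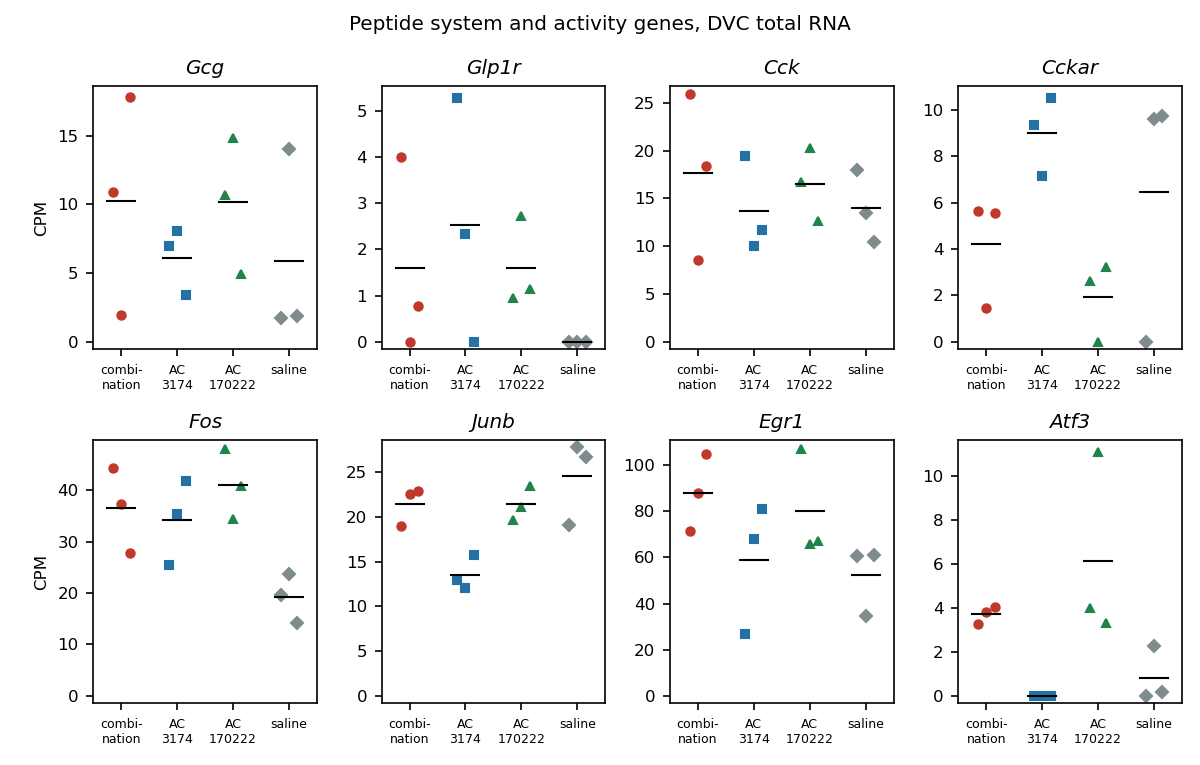
Level in CPM of Gcg, Glp1r, Cck and Cckar (top) and of Fos, Junb, Egr1 and Atf3 (bottom) in the 12 DVC input libraries, by treatment. Each point is 1 library and the line is the group mean; Fos lies above saline with both drugs and with each alone, and Atf3 is at 0 in the 3 AC3174 libraries.

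DVC neuron markers were compared next. Chat, the acetylcholine-making enzyme of vagal motor neurons, was at 62.6, 95.0 and 108 CPM in the combination, 153, 154 and 155 CPM with AC3174, 119, 123 and 129 CPM with AC170222 and 61.2, 177 and 45.2 CPM in saline. The combination lay below both single drugs but inside the wide range of saline (log2 -0.64 ± 0.36, edgeR adjusted p = 0.967). It was the only one of the 10 vagal motor genes tested without overlap, and the list median was 0.11. Ache (-0.22 ± 0.23), which breaks acetylcholine down, overlapped.

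Among catecholamine genes, Th was at 63.6, 86.1 and 99.7 CPM in the combination, 54.4, 61.8 and 39.9 CPM with AC3174, 67.6, 91.6 and 50.6 CPM with AC170222 and 35.5, 36.2 and 47.6 CPM in saline (log2 0.46 ± 0.23, edgeR adjusted p = 0.964). Dbh ranged from 0.755 to 21.6 CPM in the combination and from 2.66 to 17.9 CPM with the single drugs (-0.26 ± 0.83). Slc6a2, the noradrenaline transporter, had 0, 0.034 and 0 CPM in the combination, 0.0107, 6.87 and 0 CPM with AC3174 and 13.6, 0.0854 and 5.44 CPM with AC170222, with single libraries far above the rest (edgeR adjusted p = 0.964, DESeq2 adjusted p = 0.0226). Of 11 genes tested in the catecholamine and serotonin list 5 were positive (median -0.02).

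Neuropeptide genes had mostly positive differences. Of 22 tested, 20 were positive with a median log2 of 0.27, 1 had an unadjusted p under 0.05 (Cbln2) and 0 were called. Cbln2, a synapse-organising peptide, was at 51.9, 22.6 and 32.0 CPM in the combination, 15.2, 17.4 and 12.4 CPM with AC3174, 20.7, 18 and 31.1 CPM with AC170222 and 25.6, 36.6 and 23.5 CPM in saline (log2 0.93 ± 0.30, edgeR adjusted p = 0.964). Tac1, the substance P precursor, was at 65.8, 30.1 and 26.8 CPM in the combination, 17.6, 27 and 25.2 CPM with AC3174 and 18.2, 37.1 and 31.2 CPM with AC170222 (0.66 ± 0.34). Combination 1 was the highest library for both. Cartpt was at 33.3, 20.5 and 37.7 CPM in the combination and 14.8 to 29.9 CPM with the single drugs (0.59 ± 0.34), and Prlh (0.09 ± 0.82) and Pomc (0.28 ± 0.61) were under 7 CPM throughout. Without combination 2 the median of the list was 0.50, and over the libraries left out in turn it ran from 0.14 to 0.50.

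Receptors of other appetite signals ranged from nearly absent to abundant. Calcr, the calcitonin and amylin receptor, was at 6.62, 0 and 8.08 CPM in the combination, 0.139, 0 and 0 CPM with AC3174, 4.70, 0.182 and 0.132 CPM with AC170222 and 0.619, 6.82 and 0 CPM in saline. Gfral, the GDF15 receptor of the area postrema, was at 7.68, 4.18 and 0 CPM in the combination and 0 to 3.64 CPM with the single drugs. Lepr was at 2.98, 0.136 and 0.323 CPM in the combination, 0.289, 0.208 and 0.130 CPM with AC3174 and 3.08, 4.86 and 4.99 CPM with AC170222. Of 29 listed receptors 27 were tested, 16 were positive (median log2 0.14) and none was called or without overlap. Adcyap1r1, the most abundant of those named, was at 58.7, 73.7 and 69.8 CPM in the combination and 68.7 to 103 CPM with the single drugs (log2 -0.33 ± 0.25).

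The intracellular pathways of the receptors were examined as lists. Of 38 cAMP pathway genes tested 18 were positive (median log2 -0.06), of 40 Gq and calcium genes 26 (0.07), of 27 ERK pathway genes 16 (0.02) and of 27 mTOR and S6 kinase genes 13 (-0.02), and 0 genes were called in any of them. The adenylyl cyclase Adcy8 was at 30.0, 16.6 and 27.9 CPM in the combination, 10.9, 9.77 and 2.95 CPM with AC3174, 21.2, 12 and 10.3 CPM with AC170222 and 21.6, 29.5 and 21.1 CPM in saline (log2 1.22 ± 0.41). Adcy2 was at 1.06 ± 0.48. Prkcd, a kinase activated by diacylglycerol, was at 47.9, 39.6 and 33.6 CPM in the combination and 6.71 to 35.6 CPM with the single drugs (1.02 ± 0.47). Itpr1, a calcium release channel also abundant in Purkinje cells, was at 5.42, 94.0 and 38.6 CPM in the combination, with its highest value in combination 2 (log2 1.22 ± 0.62, and 0.16 without that library).

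Itpr3, another calcium release channel, was the member of these lists that DESeq2 called (adjusted p = 5.69e-06). It was at 4.39, 1.33 and 0.701 CPM in the combination, 0, 0.0139 and 0 CPM with AC3174, 0, 0 and 0.0842 CPM with AC170222 and 4.89, 7.71 and 7.31 CPM in saline. The single drugs, and not the combination, were farthest from saline. Hras (log2 0.59 ± 0.35), Spry4 (-0.74 ± 0.42), Tsc2 (-0.66 ± 0.41) and Eif4ebp1 (1.18 ± 0.74), of the ERK and mTOR lists, did not pass edgeR's test. Eif4ebp1, a brake on translation, was at 3.49, 5.54 and 3.72 CPM in the combination, 1.53, 2.23 and 1.30 CPM with AC3174 and 2.21, 1.06 and 3.02 CPM with AC170222, without overlap.

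Transmitter receptor lists had about as many positive as negative members. Gabrg1, a GABA-A receptor subunit, was at 7.97, 2.89 and 4.18 CPM in the combination, 22.4, 17.3 and 16.4 CPM with AC3174, 30.5, 12.3 and 25.5 CPM with AC170222 and 8.18, 11.9 and 27.8 CPM in saline (log2 -2.04 ± 0.53, edgeR adjusted p = 0.964, DESeq2 adjusted p = 0.00436). Grin2b, an NMDA receptor subunit, was at 3.92, 0.714 and 2.16 CPM in the combination, 5.80, 3.92 and 14.5 CPM with AC3174 and 8.85, 12.2 and 4.03 CPM with AC170222 (-1.85 ± 0.79). Gabrg1 lay well below all single-drug libraries, while for Grin2b the highest combination and the lowest AC3174 library were equal at this rounding. Grin2a (-5.71 ± 2.32) was nearly absent from the combination and had single-drug libraries at 0. Of 18 GABA and glycine receptor genes 9 were positive (median 0.03) and of 22 glutamate receptor genes 12 (0.13), with 0 called in either.

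The channel and vesicle genes named by the rule had small differences. Kcnab2 was at 282, 413 and 310 CPM in the combination and 387 to 488 CPM with the single drugs (log2 -0.33 ± 0.14), and Scn4b at 96.1, 61.9 and 64.9 CPM against 77.7 to 131 CPM (-0.61 ± 0.20). Scn1a (-0.62 ± 0.30), Syt4 (0.40 ± 0.18) and Cplx2 (0.31 ± 0.16) all overlapped. Of 37 potassium channel genes tested 15 were positive (median -0.08), of 28 sodium and calcium channel genes 19 (0.10) and of 27 synaptic vesicle genes 14 (0.01). The pan-neuronal list had 6 of 15 positive (median -0.04), with Nefl (-0.22 ± 0.12) and Elavl4 (-0.15 ± 0.10) of smallest p, and the glycine transporters Slc6a9 (-0.50 ± 0.23) and Slc6a5 (-0.37 ± 0.29) were of smallest p in the transmitter identity list at a mean of at least 1 CPM, in which 3 of 10 were positive (-0.11).

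Among metabolic genes, Hk1 and Insig1 lay below all single-drug libraries. Hk1, the brain hexokinase that starts glycolysis, was at 344, 344 and 359 CPM in the combination, 398, 459 and 474 CPM with AC3174, 489, 507 and 437 CPM with AC170222 and 410, 410 and 501 CPM in saline (log2 -0.40 ± 0.10, edgeR adjusted p = 0.964, DESeq2 adjusted p = 0.0161). Pdk1, a pyruvate dehydrogenase kinase, was at 44.9, 17.9 and 26.3 CPM in the combination and 27.9 to 88.0 CPM with the single drugs (-0.87 ± 0.33). Insig1, a sterol-regulated brake on cholesterol synthesis, was at 54.4, 69.8 and 61.0 CPM in the combination, 103, 92.0 and 96.4 CPM with AC3174, 77.2, 79.1 and 75.9 CPM with AC170222 and 105, 80.1 and 64.8 CPM in saline (-0.49 ± 0.16). In the cholesterol list 8 of 21 were positive (median -0.07), Srebf2 among the negative ones (-0.43 ± 0.21), and in the glycolysis list 8 of 22 (-0.11).

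Clock and steroid-responsive genes were split in direction. Per1 was at 23.3, 27 and 29.0 CPM in the combination, 18.9, 15.2 and 20.2 CPM with AC3174, 16.8, 16.1 and 16.7 CPM with AC170222 and 20.0, 26.1 and 14.0 CPM in saline (log2 0.61 ± 0.25), above all single-drug libraries. Cry2, a repressor in the same feedback loop, was at 130, 159 and 114 CPM in the combination, 192, 173 and 214 CPM with AC3174 and 196, 173 and 201 CPM with AC170222 (-0.51 ± 0.20). The combination lay below all single-drug libraries but inside the range of saline (198, 178 and 99.3 CPM). Plin4, a lipid droplet protein, was at 1.42, 2.51 and 1.75 CPM in the combination and 3.90 to 5.70 CPM with the single drugs (-1.37 ± 0.64). Its saline libraries, at 2.65, 2.82 and 1.60 CPM, overlapped the combination and lay below all single-drug libraries. The edgeR adjusted p was 0.964 for all 3 genes. Of 20 clock genes 9 were positive (median -0.07) and of 17 glucocorticoid-responsive genes tested 10 (0.12).

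Chaperone differences were small and mostly negative. Stip1, a co-chaperone, was at 527, 533 and 533 CPM in the combination, 574, 579 and 588 CPM with AC3174, 603, 673 and 572 CPM with AC170222 and 591, 598 and 585 CPM in saline (log2 -0.17 ± 0.08). Hspa8, the constitutive heat shock chaperone, was at 1070, 1060 and 1080 CPM in the combination, 1070, 1280 and 1080 CPM with AC3174 and 1640, 1410 and 1360 CPM with AC170222 (-0.28 ± 0.09), and the combination overlapped AC3174. In the heat shock list 5 of 16 were positive (median -0.09) and in the unfolded protein list 10 of 25 (-0.05), where Pdia6 (0.53 ± 0.25) overlapped. Ern1, the stress sensor IRE1 alpha, was at 0 in the combination, at 0, 0.845 and 0 CPM with AC3174 and at 4.48, 1.88 and 7.05 CPM with AC170222.

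Nuclear-encoded respiratory chain and ribosomal protein genes had small positive differences in most members. Of 81 respiratory chain genes 66 were positive (median log2 0.11) and of 78 ribosomal protein genes 65 (0.10), with 0 called in either list. Uqcc3 (0.46 ± 0.24) and Ndufs1 (-0.29 ± 0.15), and Rpl8 (0.27 ± 0.16) and Rps3 (0.25 ± 0.16), were the members of smallest p. The ribosomal summed level was 5770 to 9420 CPM in the combination, 5210 to 8790 CPM with AC3174, 6400 to 8830 CPM with AC170222 and 7630 to 7880 CPM in saline, so libraries of 1 group spanned more than the shift. With 1 library left out the medians ran from -0.04 to 0.23 and from -0.12 to 0.25. Of 39 proteasome genes 26 were positive (0.05), with Psmd9 at 98.7, 74.5 and 79.0 CPM in the combination and 42.5 to 74.4 CPM with the single drugs (0.51 ± 0.19), and Psmd5 at -0.27 ± 0.12.

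Astrocyte and oligodendrocyte lists had mostly negative differences from the mean of the single drugs. In the astrocyte list 3 of 17 were positive (median log2 -0.18) and in the oligodendrocyte list 3 of 16 (-0.17), and 0 genes were called. Against AC3174 the medians were -0.29 and -0.22, and against AC170222 they were 0.01 and -0.01. The astrocyte sum was 4880 to 6140 CPM in the combination, 5860 to 6040 CPM with AC3174, 4770 to 5000 CPM with AC170222 and 4520 to 5760 CPM in saline. Slc1a2, the main glutamate transporter, was at 92.4, 57.3 and 78.2 CPM in the combination, 121, 145 and 99.1 CPM with AC3174 and 67.7, 75.6 and 129 CPM with AC170222 (-0.47 ± 0.30), and Acsbg1 was at -0.22 ± 0.12. The oligodendrocyte sum was 6780 to 8210 CPM in the combination, 8570 to 9460 CPM with AC3174, 7020 to 9190 CPM with AC170222 and 7890 to 9790 CPM in saline, with Ermn (-0.38 ± 0.18) and Myrf (-0.57 ± 0.28) of smallest p.

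Markers of immune and vascular cells were at low level and uneven. Cx3cr1, the microglial fractalkine receptor, was at 1.26, 5.91 and 4.61 CPM in the combination, 6.95, 11.2 and 11.2 CPM with AC3174 and 4.20, 15.5 and 13.2 CPM with AC170222 (log2 -1.40 ± 0.71), while Gpr34 was at 2.06 ± 1.27. In the microglial list 7 of 16 were positive (median log2 -0.21), and the summed level was 108 to 142 CPM in the combination, 106 to 160 CPM with AC3174, 105 to 131 CPM with AC170222 and 136 to 139 CPM in saline. Endothelial genes summed to 48.2 to 61.9 CPM in the combination, 67.4 to 104 CPM with AC3174, 57.0 to 86.0 CPM with AC170222 and 80.8 to 114 CPM in saline, with Flt1 at 0, 0.68 and 0 CPM in the combination (-4.22 ± 2.20). Ifit2, an interferon-induced gene, was at 9.14, 10.8 and 7.03 CPM in the combination and 11.5 to 37.0 CPM with the single drugs (-0.92 ± 0.45), without overlap.

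Choroid plexus and cerebellar lists depended on single libraries. In the choroid plexus list 11 of 11 tested were positive (median log2 0.70), with Ttr at 1.64 ± 1.37, and without 1 library in turn the median ran from -0.44 to 1.76. In the cerebellar list 9 of 9 were positive (1.14), and 3 of 9 without combination 2 (-0.08). Car8 was at 1.91 ± 0.65 with all libraries and -0.06 without combination 2, and Pcp2 at 3.18 ± 1.39 and -1.15. Ogn, a meningeal fibroblast gene, was at 7.79, 2.11 and 5.90 CPM in the combination, 0 CPM in the 3 AC3174 libraries, 1.93, 0 and 2.06 CPM with AC170222 and 5.02, 0 and 0.0123 CPM in saline (fitted log2 6.69 ± 2.3, edgeR adjusted p = 0.964, DESeq2 adjusted p = 1.61e-07). The meningeal sum did not follow it, at 536 to 565 CPM in the combination, 577 to 764 CPM with AC3174, 418 to 613 CPM with AC170222 and 562 to 754 CPM in saline.

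**Figure D5:**
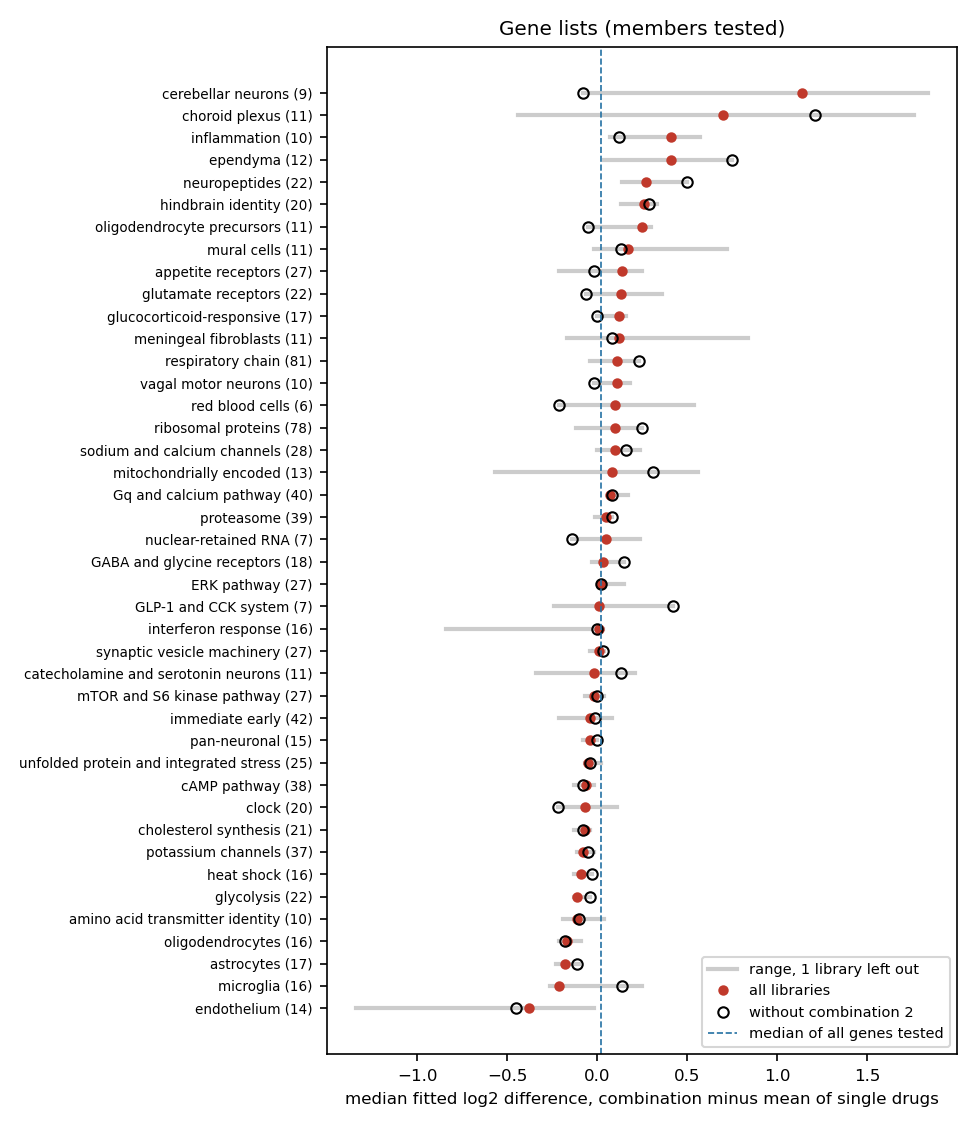
Median fitted log2 difference of the combination minus the mean of the single drugs for 42 of the 43 gene lists, with the number of members tested (horizontal axis, log2). Filled points use all libraries, open circles leave out combination 2, grey bars span the fits with 1 library left out and the dashed line is the median of all genes; the cerebellar point moves to -0.08 without combination 2. The hypothalamic list, whose summed level did not exceed 10.8 CPM in any library, is not drawn.

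The remaining lists describe tissue identity and other cells, and 0 of their genes were called by edgeR. DESeq2 called Agrp and Avp of the hypothalamic list and Rsad2 of the interferon list. It also called Kdr and Tie1 of the endothelial list and Lum, Col3a1 and Ogn of the meningeal list. Of 20 hindbrain genes 15 were positive (median log2 0.26), with Hoxc5 at 42.4, 32.1 and 60.0 CPM in the combination, 23.7, 29.0 and 33.5 CPM with AC3174 and 42.9, 25.4 and 31.6 CPM with AC170222 (0.53 ± 0.34). The hypothalamic list held 13 counted genes, whose summed level was 1.81 to 10.3 CPM in the combination and 0.162 to 10.8 CPM with AC3174. The sum was 0.0842 to 4.28 CPM with AC170222 and 2.89 to 4.36 CPM in saline. Of its 7 tested genes 6 were positive (2.42). Of 10 inflammation genes tested 8 were positive (0.41), with Vcam1 at 0.77 ± 1.05 and C3 at -1.53 ± 2.08, and of 16 interferon genes 8 (0.01), with Usp18 at -4.12 ± 2.09.

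Other glial and vascular lists rested on low counts. Of 11 oligodendrocyte precursor genes 7 were positive (median log2 0.25), with Vcan at -3.48 ± 2.18 and Gpr17 at -1.73 ± 1.21. Of 14 endothelial genes 6 were positive (-0.38), and Tie1 (5.49 ± 2.59), a receptor of blood vessels, was at 2.66, 3.67 and 0 CPM in the combination and 0 CPM in the 3 AC3174 libraries. Of 11 mural cell genes 8 were positive (0.17), with Myh11 at 3.5 ± 1.59, of 12 ependymal genes 9 (0.41), with Sox2 at 0.56 ± 0.58, and of 11 meningeal genes 6 (0.12), with Col3a1 at 6.65 ± 2.49. Of 6 red blood cell genes 4 were positive (0.10), with Alas2 at 1.61 ± 1.5, of 7 nuclear-retained RNAs 5 (0.05) and of 13 mitochondrially encoded genes 9 (0.08).

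Against AC3174 alone edgeR called 0 of 17477 genes (0.0%), with 793 (4.54%) at an unadjusted p under 0.05 and a lowest adjusted p of 0.286, limma-voom called 0 and DESeq2 250. Aldh1a1, which makes retinoic acid, was one of the 2 named genes at a lower level. It was at 119, 156 and 117 CPM in the combination, 265, 222 and 206 CPM with AC3174, 133, 128 and 145 CPM with AC170222 and 159, 169 and 174 CPM in saline (log2 -0.82 ± 0.15 against AC3174, edgeR adjusted p = 0.633). AC3174 was the group that stood apart. Poli, a DNA repair polymerase, was at 17.8, 7.58 and 7.11 CPM in the combination, 3.00, 0.638 and 2.27 CPM with AC3174, 14.1, 13.3 and 13 CPM with AC170222 and 12.4, 12.4 and 20.6 CPM in saline (2.46 ± 0.63). Ncoa5 (1.02 ± 0.20) and Afg1l (-1.38 ± 0.26) filled the other places.

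Against AC170222 alone edgeR called 0 genes (0.0%), with 832 (4.76%) at an unadjusted p under 0.05 and a lowest adjusted p of 0.222, limma-voom called 0 and DESeq2 263. Hmgcll1, an enzyme of ketone body formation, was at 26.7, 33.4 and 28.2 CPM in the combination, 31.3, 24.6 and 27.1 CPM with AC3174, 9.71, 7.98 and 6.25 CPM with AC170222 and 19.0, 29.0 and 28.7 CPM in saline (log2 1.88 ± 0.30, edgeR adjusted p = 0.396). Rin2, an endosomal GTPase regulator, was at 51.5, 45.9 and 44.1 CPM in the combination, 51.9, 39.8 and 46.3 CPM with AC3174, 12.5, 20.3 and 22.7 CPM with AC170222 and 40.6, 35.2 and 34.1 CPM in saline (1.35 ± 0.25, edgeR adjusted p = 0.853). Both were low with AC170222 alone, and the combination overlapped AC3174. Snph, which docks mitochondria in axons, was at 124, 164 and 124 CPM in the combination, 157, 207 and 251 CPM with AC3174, 280, 241 and 271 CPM with AC170222 and 190, 172 and 205 CPM in saline (-0.94 ± 0.18).

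Non-additivity was tested on the log2 scale by taking both single-drug effects off the effect of the combination, each effect measured against saline. edgeR called 0 genes (0.0%), with 809 (4.63%) at an unadjusted p under 0.05 and a lowest adjusted p of 0.532, limma-voom called 0 and DESeq2 302. This test shares its libraries with the comparisons above. Mlxip had a log2 non-additivity of 2.14 ± 0.55 and Hmgcll1 1.77 ± 0.41, and in both the combination overlapped saline while AC170222 lay below it. Vps26a, a retromer subunit, was at 119, 125 and 138 CPM in the combination, 155, 134 and 145 CPM with AC3174, 161, 176 and 189 CPM with AC170222 and 113, 112 and 126 CPM in saline (-0.77 ± 0.18, edgeR adjusted p = 0.952). Each single drug lay above saline and the combination was close to it.

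The same comparison in MBH input gave a test of whether the difference was larger in the DVC. edgeR called 0 of 18576 genes (0.0%), with 773 (4.16%) at an unadjusted p under 0.05 and a lowest adjusted p of 0.764, and DESeq2 called 544. limma-voom called 1, Kit, a growth factor receptor (adjusted p = 0.0193). In MBH input Kit was at 14.0, 3.34 and 10.9 CPM in the combination, 0 CPM in the 6 single-drug libraries and 12.9, 0 and 1.60 CPM in saline, whereas in DVC input it was at 0.451, 11.8 and 18.2 CPM in the combination and 6.29 to 20.9 CPM with the single drugs. Its MBH single-drug libraries were thus all at 0. Cntn1 was at 84.7, 65.7 and 97.3 CPM in the combination and 40.6 to 73.9 CPM with the single drugs in MBH, opposite in sign to the DVC (difference of differences -1.43 ± 0.30, edgeR adjusted p = 0.764). Dusp26 was at 417, 423 and 338 CPM in the combination and 373 to 428 CPM with the single drugs in MBH (0.45 ± 0.14, edgeR adjusted p = 1), and Pqbp1 had 0.51 ± 0.15.

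Set against the pS6 ribosome pull-down of the same region, edgeR called 0 of 18465 genes (0.0%), with 895 (4.85%) at an unadjusted p under 0.05 and a lowest adjusted p of 0.993, DESeq2 called 1050 and limma-voom 1, Itpr3 (adjusted p = 0.0397). Rusc1, an endosomal adaptor, was at 157, 220 and 204 CPM in the combination and 205 to 299 CPM with the single drugs in input. In the IP it was at 439, 348 and 275 CPM in the combination, 395, 307 and 329 CPM with AC3174 and 95.4, 71.3 and 186 CPM with AC170222 (input minus IP -1.25 ± 0.34, edgeR adjusted p = 0.993). Vash2, a tubulin-modifying enzyme, had a count of 0 in the 3 combination IP libraries and 0.879 to 38.7 CPM in the single-drug IP libraries, while its input levels of 0 to 23.3 CPM in the combination overlapped those of the single drugs. Tspan33 did not exceed 2.58 CPM in the drug IP libraries, and P2ry12 was at 11.6, 0 and 5.27 CPM in the combination IP and at most 0.0354 CPM in the single-drug IP.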

How the data were processed

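Total RNA libraries were made with a SMART-Seq v4 amplification kit and Nextera XT, per the labels' protocols, which keep no strand. The authors deposited raw counts of reads over genes, made with TopHat2 2.0.11, HTSeq 0.6.1p1 and build GRCm38 per the submitters' processing notes; neither annotation nor strand setting was found in the labels. Symbols and positions come from GENCODE M21, which matched 36429 of 38293 identifiers. Reads of overlapping or antisense genes and of near-identical copies cannot be separated. Within each group no replicate was a copy of another, and pairs across groups were not compared.

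The 12 DVC input libraries (4 treatments, 3 each) were fitted together with edgeR 4.0.16 in R 4.3.3 (filterByExpr, TMM, quasi-likelihood F test, 2-sided), with Benjamini-Hochberg adjustment over all genes tested and calls at an adjusted p under 0.05. The common biological coefficient of variation was 0.918. There are no molecular identifiers, so amplified copies count as separate reads, and floors of 3 counts cover counting error only. Differences between regions, and between input and IP, were interaction terms over 24 libraries each. The main fit of input and IP did not pair the input and IP libraries of the same sample. DESeq2 1.42.0, limma-voom (limma 3.58.1), other scaling and filters, covariates and leaving out each library were alternatives. The script was checked on simulated data with a smaller spread than these libraries have, so that check does not give the power of the tests here.

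The comparison, its 43 gene lists and the naming rule were chosen with earlier results of these data known. The rule takes up to 12 genes per direction by smallest p with a mean of at least 5 CPM and no overlap, 2 per direction for each other comparison, up to 2 members of each list with a mean of at least 1 CPM, and a fixed set of peptide, receptor, activity and neuron genes. Slc18a3, Hoxd4, Kiss1, Pde2a, Lhfpl3 and Kcnq1ot1 were listed but not analysed here. Some genes that the rule names are not reported here.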

Additional observations from a re-analysis of the deposited data

How the results depend on the processing

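edgeR called 0 genes in all 6 comparisons with the DESeq2 size factors, without the filter, at a mean of at least 5 CPM, and, where they could be fitted, with the S suffix of the library codes as a covariate and without saline. DESeq2 called 263 genes against the mean of the single drugs, 250 against AC3174, 263 against AC170222, 302 for non-additivity, 544 for DVC minus MBH and 1050 for input minus IP. limma-voom called 0, 0, 0, 0, 1 and 1 genes in the same order. With 1 library left out, the count ran from 0 to 1 in each of the 4 DVC input comparisons, and was 0 in the other two. The gene was Zfp26 without combination 2 (0, 6.80 and 0 CPM in the combination, 13.8, 8.44 and 8.07 CPM with AC3174 and 13, 22.4 and 30.3 CPM with AC170222), with an edgeR adjusted p of 0.00815 against the single drugs, and Hcrtr1 against AC3174 without AC3174 2 (adjusted p = 0.0259). Both are calls in which 2 libraries of a group were left at 0.

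With the replicate block 0 genes were called in all 6 comparisons. For input minus IP the block was the sample number that input and IP of a treatment share. Genes at an unadjusted edgeR p under 0.05 were then 137 (0.742%) in that comparison, against 895 (4.85%) without the block. Deviations from the group means correlated at -0.0587 to 0.166 between same-numbered libraries (18 pairs, 3 over 0.1). Their median was 0.0225, against -0.0236 between libraries of other numbers. In 1 of 12 libraries the own number was the best match in every other treatment. These low correlations, taken among the DVC input libraries only, show no clear pairing of treatments by replicate number but cannot exclude one. The labels state no such pairing. Under the replicate block the log2 difference of Lepr was -0.46.

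The 24 named genes kept their direction in all 479 values. They were picked for no overlap with the single-drug libraries, so a reversal was unlikely from the start and this supports nothing. Over all 150 results, 14 of 1151 values under other settings and 23 of 1800 with a library left out had the opposite sign, and the cause was not tested. With the S suffix as a covariate these were Tspan33 (-0.02), Vash2 (-1.81), Cck (-0.24), Ttr (-0.42), Fos (0.14), Gcg (-0.71), Lepr (-1.34) and Prlh (-0.56). With limma-voom they were Vash2 (-0.28), Itpr1 (-0.19), Fos (0.11), Lepr (-0.61) and Cbln3 (-0.92). With a library left out, the log2 difference ran from -1.29 to 0.02 for Kit, -0.33 to 1.00 for Vash2, -0.15 to 0.54 for Cck, -0.06 to 2.38 for Car8, -1.15 to 3.94 for Pcp2, -3.08 to 4.14 for Cbln3, -0.45 to 3.21 for Folr1, -0.20 to 0.12 for Fos and -0.29 to 0.86 for Gcg. It ran from -2.34 to 0.22 for Glp1r, -0.28 to 0.42 for Cckar, -2.03 to 0.77 for Lepr, -0.92 to 0.46 for Prlh, -0.11 to 0.54 for Pomc and -1.92 to 0.28 for Dbh. Glp1r had a count of 0 in 1 combination, 1 AC3174 and 3 saline libraries. Saline 2 and 3 were among these at 75404435 and 80618210 total counts. Combination 3 had 0.781 CPM at 35977831 total counts, and the part of depth was not tested.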
